A study of Homo sapiens with 8 samples.

Results

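The cyclins described here are 9 genes taken by name, CCNA2, CCNB1, CCNB2, CCND1, CCND2, CCND3, CCNE1, CCNE2 and CCNF, out of 19124 genes in the deposited tables. They were followed in HCT116 and HT29, established human colorectal carcinoma cell lines, 48 h after transfection with siRNA at 15 nM. Each line received an siRNA against RPL9, RPL17 or RPL27, each a protein of the large ribosomal subunit, or a negative control siRNA (NC), all by lipofection. RNA sequencing gave 8 libraries, 1 for each line and siRNA, so 6 carry an RPL siRNA and 2 carry NC. No siRNA was repeated within a line, and a single siRNA treatment stands for each target. Values are RPKM, a read density scaled to gene length and library size. The deposited values do not have that scale as whole-gene densities: times transcript length in kb they summed to 16.8 to 21.5 mega per library over 18274 genes, where reads counted once give at most 1, and to 1.66 to 1.74 after division by the exon number. That is nearer to the scale of densities added over exons but still above 1, and how the values were made is not known. Densities so added would list genes with many exons higher, so a level is compared between libraries and not between genes.

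Cyclins are the regulatory subunits that switch on the cyclin-dependent kinases (CDKs) and give them their substrates. D-type cyclins (CCND1, CCND2, CCND3) pair with CDK4 and CDK6 in G1 and are induced by growth signals, and E-type cyclins (CCNE1, CCNE2) pair with CDK2 at entry into S phase. Cyclin A2 acts with CDK2 in S phase and with CDK1 later, B-type cyclins drive CDK1 into mitosis, and cyclin F, which activates no CDK, is the substrate-binding subunit of an SCF ubiquitin ligase. The genes of cyclins A2, B1, B2 and F are transcribed late in the cycle, while E-type cyclin genes are known as E2F targets. Amplified or overexpressed CCND1 is common in cancer, and CCND1 is a known Wnt target in colorectal tumours.

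Promoter sequence is shown for the 4 cyclins of the later cycle (CCNA2, CCNB1, CCNB2, CCNF), whose levels varied together over the 8 libraries, and for CCNE1, whose level ran against theirs (r of -0.56 to -0.18). Each line is the 130 bases before the RefSeq transcription start, 5′ to 3′ in the gene's direction, on GRCh38.p14, a later build than the hg19 that the reads were aligned to. Capitals mark CCAAT, the box bound by NF-Y, and TTTGAA or TTTAAA, the letters of the cell cycle genes homology region (CHR) bound by the DREAM and MYB-MuvB complexes. Both strands were searched, and TTTAAA is its own reverse complement.
CCNA2 (chr4:121823884-121824013 on the minus strand): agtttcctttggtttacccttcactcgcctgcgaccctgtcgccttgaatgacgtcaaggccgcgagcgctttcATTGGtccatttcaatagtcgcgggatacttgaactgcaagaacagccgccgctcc
CCNF (chr16:2429317-2429446 on the plus strand): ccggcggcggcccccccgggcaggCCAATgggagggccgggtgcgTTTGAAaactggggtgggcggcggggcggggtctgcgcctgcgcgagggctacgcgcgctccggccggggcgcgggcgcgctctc
CCNB1 (chr5:69167020-69167149 on the plus strand): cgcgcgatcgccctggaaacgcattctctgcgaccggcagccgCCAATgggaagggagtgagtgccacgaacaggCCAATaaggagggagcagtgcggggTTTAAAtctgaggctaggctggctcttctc
CCNB2 (chr15:59105016-59105145 on the plus strand): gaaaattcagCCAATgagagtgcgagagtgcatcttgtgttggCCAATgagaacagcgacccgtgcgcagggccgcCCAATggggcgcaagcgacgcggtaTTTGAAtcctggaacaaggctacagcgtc
CCNE1 (chr19:29811861-29811990 on the plus strand): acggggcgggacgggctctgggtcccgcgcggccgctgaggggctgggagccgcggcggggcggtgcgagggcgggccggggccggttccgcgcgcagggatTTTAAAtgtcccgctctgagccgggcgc
In the 250 bases before the start, CCAAT occurred in the windows of CCNA2, CCNB1, CCNB2 and CCNF, in 2 of the 3 CCND3 windows, and in 32% of all 35116 RefSeq promoter windows. CCNB2 held 4 such boxes, CCNF 4, CCNB1 2 and CCNA2 1, read on the opposite strand, and CCNE1 none. TTTGAA or TTTAAA occurred in CCNB1, CCNB2, CCNF and CCNE1 and in 21.9% of all windows. These hexamers began 30 bases before the start in CCNB1, 29 and 193 in CCNB2, 28 in CCNE1 and 85 in CCNF. The E2F-like letters TTTCGCGC, TTTGGCGC, TTTCCCGC and TTTGGCGG, which 2.83% of windows held, were found in none of the 6 members with a window (those 5 and CCND3). Only these exact letters were searched, so an element written with other letters would be missed, and a match need not be such an element. A match is a description of letters, and no factor binding was measured.

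The targeted genes were lowered in their own libraries, to 26.7% to 38.5% of NC in HCT116 and 13.7% to 18.8% of NC in HT29. Set against the other RPL siRNA libraries of their line, which leaves out NC, they were at 22.0% to 43.3% in HCT116 and 21.0% to 46.6% in HT29. RPL27 was also at 4723 RPKM with RPL17 siRNA in HCT116, against 7649 with NC, and at 4754 in HT29, against 16205 with NC. The HT29 NC library stood apart. Its deviation from the mean of the other 7 libraries ran with transcript length at a Spearman rho of -0.54 over 14180 genes. The other libraries, each set against a mean that includes the HT29 NC library, had 0.12 to 0.23. The median of all genes lay 0.17 to 0.20 log2 above NC in the RPL siRNA libraries of HT29, and 0.00 to 0.02 in those of HCT116. Results against NC are therefore given as deposited and after removal of each library's trend with length, called length-corrected. EPCAM, CDH1, KRT8, KRT18 and KRT19, markers of colorectal epithelium, were at 268 RPKM or more in every library, whereas KRT20, VIL1 and LGALS4 were at 358 RPKM or more in HT29 and at 16.3 or less in HCT116, and CDX1 was at or near 0 in both. Of 15 markers of fibroblasts, leukocytes and endothelium, 4 to 8 reached 1 RPKM in a library, and their sum was 398 to 461 RPKM with RPL siRNA and 461 with NC in HCT116, and 2814 to 3475 with RPL siRNA and 2201 with NC in HT29. Most of that sum was COL1A1 and, in HT29, LYZ, and the defining markers DCN, LUM, PECAM1 and CDH5 were below 1 RPKM throughout. Their part in the results was not tested.

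CCND1, the G1 cyclin that activates CDK4 and CDK6, was the member whose level was higher in all 6 RPL siRNA libraries. In HCT116 it stood at 1659 RPKM with RPL9 siRNA, 2610.4 with RPL17 siRNA and 1586 with RPL27 siRNA, against 1087 with NC. In HT29 it stood at 1063, 1953 and 1077 RPKM with the same siRNAs in that order, against 365 with NC. The RPL17 siRNA library was the highest in each line, at 240% of NC in HCT116 and 535% in HT29, while the RPL9 and RPL27 siRNA libraries lay within a few percent of each other, at 153% and 146% of NC in HCT116 and 291% and 295% in HT29. The groups did not overlap within a line. CCND1 was 1 of the 18% of tested genes higher in all 6 RPL siRNA libraries than in the NC of their line.

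CCND3, the D-type cyclin prominent in lymphoid and muscle cells, stayed close to NC in all libraries. Its level was 62.2, 62.3 and 59.1 RPKM with RPL9, RPL17 and RPL27 siRNA in HCT116, against 67.1 with NC. In HT29 it was 57.7, 61.0 and 68.3 RPKM, against 71.4 with NC, so that the RPL siRNA libraries lay at 80.8% to 95.6% of NC over both lines. CCND2 was near 0 in all 8 libraries, at 0.0176 to 0.115 RPKM with RPL siRNA and 0.159 with NC in HCT116, and at 0.0962 to 0.161 with RPL siRNA and 0.0634 with NC in HT29. With a mean of 0.105 RPKM it failed the minimum of 1 RPKM set for testing, which left 8 of the 9 members tested.

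CCNE1, the E-type cyclin that activates CDK2 at the G1/S boundary, showed no shared direction. It was at 325, 257 and 322 RPKM with RPL9, RPL17 and RPL27 siRNA in HCT116, against 262 with NC, and at 194, 217 and 288 RPKM in HT29, against 265 with NC. The RPL17 siRNA library was the lowest of the 4 in HCT116 and the RPL9 siRNA library was the lowest in HT29. CCNE2, its paralog, went opposite ways in the 2 lines. In HCT116 it was at 156, 216 and 147 RPKM, against 269 with NC, which is 54.7% to 80.2% of NC. In HT29 it was at 125, 162 and 124 RPKM, against 110.4 with NC, which is 112% to 147% of NC. All 3 RPL siRNA libraries thus lay below NC in HCT116, as for 32.4% of tested genes, and above it in HT29, as for 46.6%. The HT29 NC library is the one with the length trend. Length-corrected, the HT29 differences of CCNE2 were 0.06, 0.36 and -0.01 log2, and with quantile normalization -0.23, 0.14 and -0.25.

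CCNA2, the S and G2 phase cyclin, was lower than NC in all 6 RPL siRNA libraries. It was at 385, 504 and 277 RPKM with RPL9, RPL17 and RPL27 siRNA in HCT116, against 744 with NC. In HT29 it was at 335, 449 and 282 RPKM, against 533 with NC. RPL27 siRNA gave the lowest level in each line, 37.2% of NC in HCT116 and 52.9% in HT29, and RPL17 siRNA the level nearest to NC. CCNF, the F-box cyclin that directs degradation of cell cycle proteins in G2, was at 210.4, 299 and 203 RPKM in HCT116, against 374 with NC. In HT29 it was at 181, 253 and 169 RPKM, against 220.1 with NC, so that the RPL17 siRNA library lay above NC there as deposited (0.20 log2) and the other 5 RPL siRNA libraries lay below theirs. That 1 direction turned to -0.43 with length correction, -0.14 with quantile normalization and -0.23 both with median-centring and with length and GC correction.

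CCNB1 and CCNB2, the mitotic cyclins that activate CDK1, held the lowest shares of NC in HT29, and in HCT116 they and CCNA2 held the lowest 3. CCNB1 was at 894, 984 and 657 RPKM with RPL9, RPL17 and RPL27 siRNA in HCT116, against 1709.8 with NC. In HT29 it was at 860.3, 868 and 647 RPKM, against 2012 with NC. All 6 RPL siRNA libraries held 57.6% of NC or less, and the RPL27 siRNA libraries 38.4% in HCT116 and 32.1% in HT29. CCNB2 was at 314, 424 and 259 RPKM in HCT116, against 708 with NC, and at 447, 487 and 353 RPKM in HT29, against 933 with NC. These are 36.6% to 59.9% of NC in HCT116 and 37.8% to 52.2% in HT29, so the groups did not overlap in either line. With CCNA2 and CCND3, the B-type cyclins were lower in all 6 libraries, as were 13% of the tested genes; CCND3 turned to 0.022 with RPL9 siRNA and 0.11 with RPL27 siRNA in HT29 with length and GC correction.

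**Figure D1:**
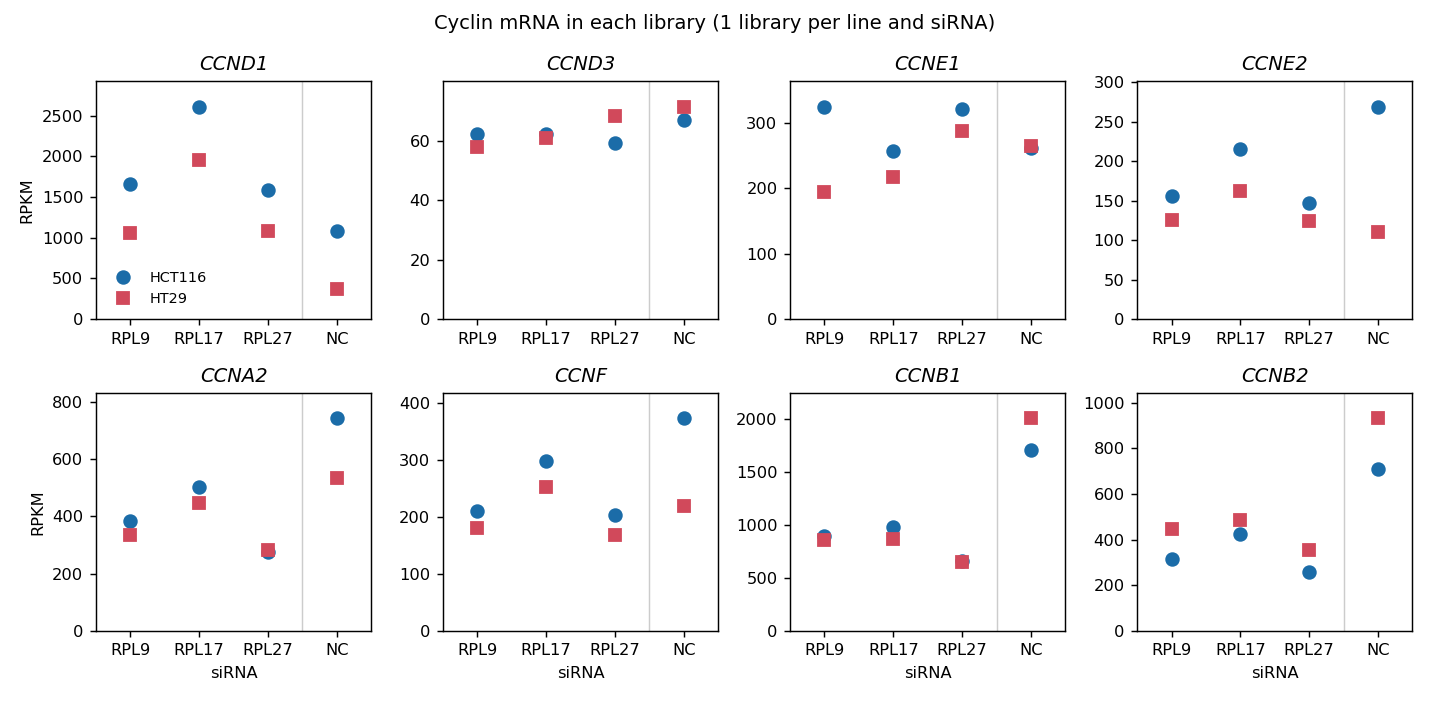
RPKM of the cyclins in each library (vertical axis), with RPL9, RPL17 and RPL27 siRNA left of NC, for HCT116 and HT29; each point is 1 library, with no error bar since no siRNA was repeated within a line. CCND1 lies above NC in all 6 RPL siRNA libraries, and CCNA2, CCNB1 and CCNB2 lie below it.

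Whether ribosomal protein depletion as a whole shifts the cyclins was asked by averaging the 3 RPL siRNAs and setting them against NC. Differences are of log2(RPKM + 1), fitted with limma with terms for line and siRNA, and adjusted p is by Benjamini and Hochberg over 14281 tested genes, called under 0.05. On deposited values no member was called (0 of 8, against 24 genes or 0.168% of all tested), and 4 of the 8 had an unadjusted p under 0.05, as did 24.6% of all genes. CCNB1 differed by -1.20 (SE 0.15, adjusted p = 0.066), CCNB2 by -1.13 (SE 0.15, adjusted p = 0.066), CCNA2 by -0.79 (SE 0.16, adjusted p = 0.090) and CCND1 by 1.32 (SE 0.25, adjusted p = 0.082). CCNF differed by -0.41 (SE 0.19, adjusted p = 0.23). For the others the 95% intervals of the difference spanned 0, from -0.64 to 0.31 for CCND3, -0.49 to 0.49 for CCNE1 and -0.81 to 0.45 for CCNE2, which admits a sizeable change either way. The members' median was -0.30, against 0.10 for all tested genes.

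After length correction, 5 of the 8 were called, where 863 genes or 6.09% of 14180 were called. CCND1 rose by 1.04 log2 (adjusted p = 0.017), while CCNB1 fell by 1.19 (adjusted p = 0.015), CCNB2 by 0.98 (adjusted p = 0.021), CCNA2 by 0.87 (adjusted p = 0.022) and CCNF by 0.69 (adjusted p = 0.037). CCND3 at -0.15, CCNE1 at 0.03 and CCNE2 at -0.25 were not called. The correction moved CCND1 and CCNF most, both downward, and their transcripts of 4307 and 4283 nt are the longest of the tested members. Leaving out the HT29 NC library left the HCT116 NC as the only control and called 6 members, CCND1 higher and CCNA2, CCNB1, CCNB2, CCNE2 and CCNF lower, where 12.9% of all genes were called. Leaving out the HCT116 NC called 4, CCND1 higher and CCNA2, CCNB1 and CCNB2 lower, where 49% of all genes were called, so 4 of 8 is near the background. In both fits the NC arm is 1 library, assumed to vary as the RPL siRNA libraries do. Leaving out any 1 RPL siRNA library, with both NC libraries kept, called none of the 8 on deposited values, and 0 of all tested genes.

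**Figure D2:**
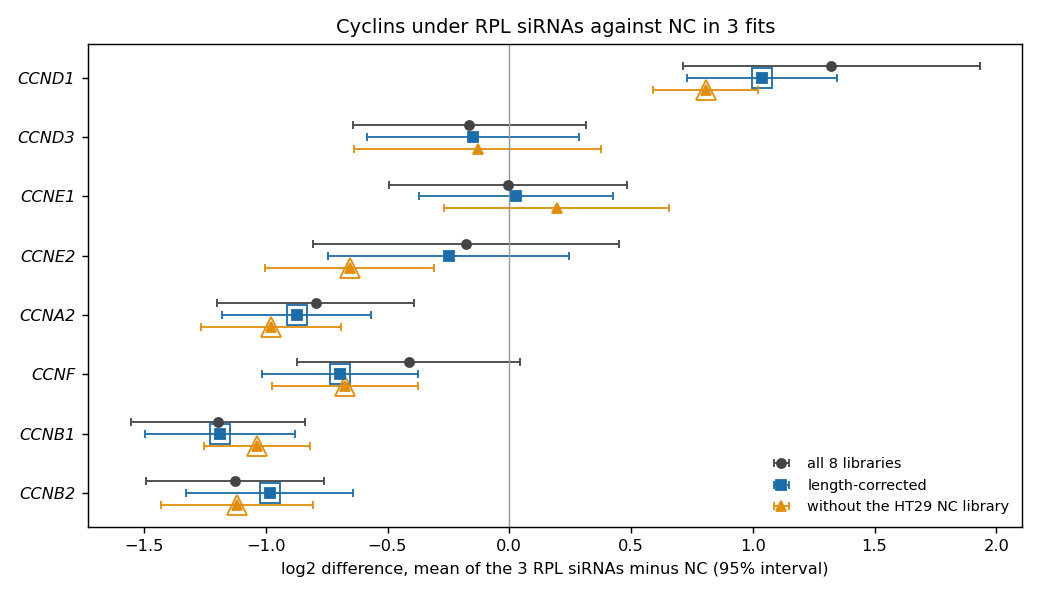
Log2 difference between the averaged RPL siRNAs and NC for the 8 tested cyclins, with 95% intervals. Points are from deposited values, length-corrected values and a fit without the HT29 NC library, in which the NC arm is 1 library. Circled points of any fit have an adjusted p under 0.05. No point from all deposited libraries is circled. The circled length-corrected points are CCND1 at 1.04 and CCNA2, CCNB1, CCNB2 and CCNF between -1.19 and -0.69.

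Each siRNA set against NC alone placed the B-type cyclins lowest and CCND1 highest among the members. With RPL9 siRNA 0 of 8 members were called (0.007% of all genes), with CCNB2 at -1.12, CCNB1 at -1.08, CCNA2 at -0.81 and CCND1 at 1.07 log2. With RPL17 siRNA 0 of 8 were called (0.014% of genes), with CCNB1 at -1.004, CCNB2 at -0.84, CCNA2 at -0.40 and CCND1 at 1.84. With RPL27 siRNA 0 of 8 were called (0% of genes), with CCNB1 at -1.51, CCNB2 at -1.42, CCNA2 at -1.17 and CCND1 at 1.05. Length-corrected, RPL9 siRNA raised CCND1 and lowered CCNA2, CCNB1 and CCNB2 (4 of 8, background 3.33%), RPL17 siRNA raised CCND1 by 1.55 (1 of 8, background 0.346%, adjusted p = 0.029) and RPL27 siRNA lowered CCNA2, CCNB1 and CCNB2 (3 of 8, background 1.73%). On deposited values 4 members with RPL9, 3 with RPL17 and 5 with RPL27 siRNA had an unadjusted p under 0.05, as did 20.4%, 15.7% and 16.7% of all genes for those siRNAs in that order. All of these comparisons share the 2 NC libraries.

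Within a line there is no replicate, so a fixed size was used: all 3 RPL siRNA libraries at least 1 log2 from NC. In HCT116 no member met it in either direction, where 2.43% of genes were lower and 1.93% higher by this size. The HCT116 differences ran from -1.45 to -0.74 for CCNB2 and from -1.38 to -0.80 for CCNB1. In HT29 CCNB1 met it at -1.64 to -1.21, with 5.19% of genes, and CCND1 met it at 1.54 to 2.42, with 16.3% of genes. Length-corrected, the HT29 differences of CCND1 were 0.94 to 1.78.

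The 3 RPL siRNAs were then set against each other over their 6 libraries, in 3 pairs that leave out both NC libraries; p was adjusted over the 14217 genes tested in each pair. RPL9 siRNA gave less CCND1 than RPL17 siRNA, with a log2 difference of -0.77 (SE 0.08, adjusted p = 0.032), which was 1 of 8 members against 0.563% of genes. RPL17 siRNA gave more CCND1 than RPL27 siRNA, by 0.79 (SE 0.08, adjusted p = 0.021), and more CCNA2, by 0.77 (SE 0.10, adjusted p = 0.041), which was 2 of 8 against 1.15% of genes. Between RPL9 and RPL27 siRNA no member was called (0 of 8, against 1.6% of genes), with 3 at an unadjusted p under 0.05. CCND1 differed there by 0.02, with a 95% interval of -0.16 to 0.21, and CCNB1 by 0.43 (adjusted p = 0.067).

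A common order ran through 5 of the cyclins. CCNA2, CCNB1, CCNB2, CCNE2 and CCNF were highest with RPL17 siRNA, next with RPL9 siRNA and lowest with RPL27 siRNA in HCT116 and again in HT29, which is 5 of 8 tested members against 5.23% of all genes. All 10 proliferation markers of the lists below, fitted over both lines, also differed in this direction in each of the 3 pairs. No other order was counted, and this one was chosen with the values known. The later cyclins among the 5 varied together, so they are not separate observations. The steps were uneven: CCNB1 differed by -0.08 between RPL9 and RPL17 siRNA (95% interval -0.27 to 0.12) and by 0.50 between RPL17 and RPL27 siRNA (adjusted p = 0.053), while CCNF differed by -0.49 (adjusted p = 0.10) and 0.56 (adjusted p = 0.075) in the same pairs. For CCND3 the intervals of all 3 pairs lay between -0.52 and 0.40, and for CCNE1 between -0.76 and 0.48. These calls rest on 2 residual degrees of freedom. A fit that takes its spread from all 8 libraries called 0 genes in any pair. The calls between RPL17 and RPL27 siRNA were lost when any 1 RPL17 or RPL27 siRNA library was left out. Those fits called 0.014% to 0.0989% of all genes in that pair. The CCND1 call between RPL9 and RPL17 siRNA was lost without any RPL9 or RPL17 siRNA library or the HCT116 RPL27 siRNA library. In that pair these fits called 0.0211% to 0.134% of all genes. Calls were thus lost over all genes, and the losses say little about the cyclins.

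**Figure D3:**
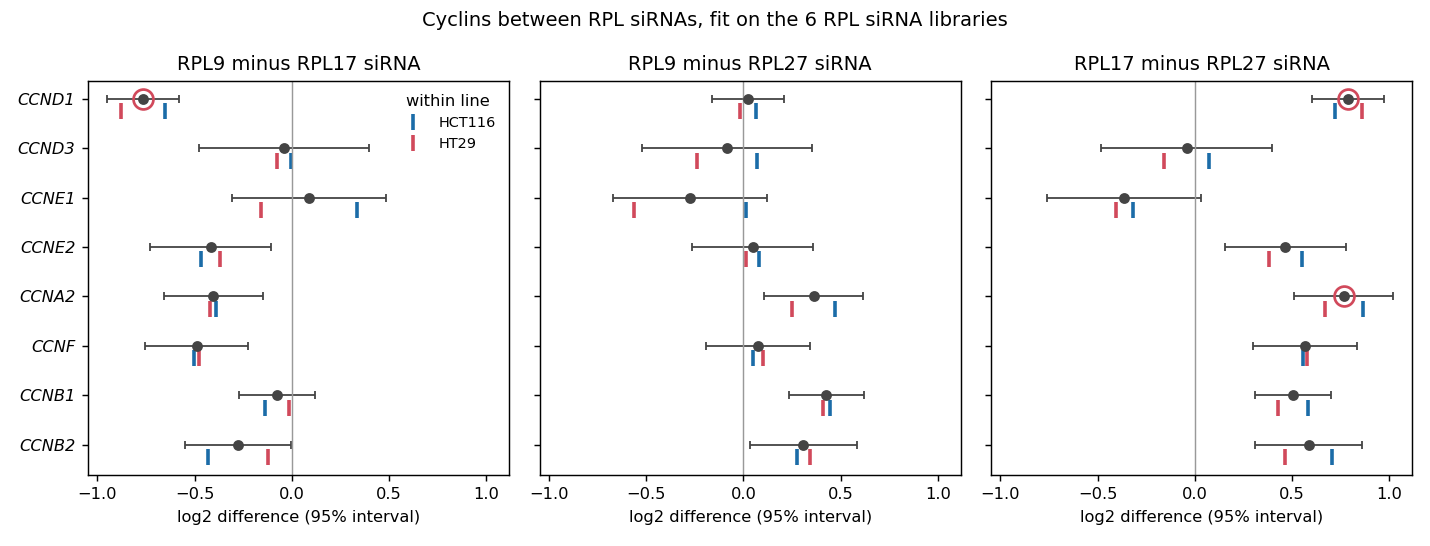
Log2 differences between the RPL siRNAs for the 8 tested cyclins in the 3 pairs, with 95% intervals from the 6 RPL siRNA libraries; larger open markers have an adjusted p under 0.05. The marked differences are CCND1 at -0.77 (RPL9 against RPL17) and 0.79 (RPL17 against RPL27), and CCNA2 at 0.77 (RPL17 against RPL27).

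The lines differed in a few cyclins under the RPL siRNAs. CCND1 was higher in HCT116 than in HT29 by 0.54 log2 (adjusted p = 0.0031) and CCNB2 was lower, with a difference of -0.38 (adjusted p = 0.032), 2 of 8 members where 23.3% of genes were called. Each single RPL siRNA library left out kept CCND1 and lost CCNB2. Length-corrected, CCND1 (0.60, adjusted p = 0.0015), CCNE1 (0.48, adjusted p = 0.031) and CCNE2 (0.42, adjusted p = 0.034) were higher in HCT116, with 27.5% of genes called. The share of members called on deposited values is near that of all genes, and different siRNAs serve as the replicates of a line here.

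Whether the siRNA effect itself differed between the lines was tested as the difference between the RPL siRNA effect in HCT116 and that in HT29. Each line has 1 NC library, so the spread comes from the different RPL siRNAs alone and the HT29 NC library alone stands for NC in HT29. No member was called (0 of 8 by limma, 1 at an unadjusted p under 0.05), where 22.9% of genes were, or 7.55% after length correction. On deposited values CCND1 had the largest such difference, -1.03 (95% interval -2.31 to 0.24, adjusted p = 0.22), and CCNE2 followed at -0.96 (SE 0.38, 95% interval -1.84 to -0.07, adjusted p = 0.11). For CCNB2 it was 0.01, with an interval of -0.91 to 0.94, and for CCNB1 0.32, from -0.50 to 1.14. Length-corrected, the members ran from -0.77, for CCNE2, to 0.36, so CCND1 no longer had the largest. Its length-corrected differences from NC were 0.57 to 1.31 in HCT116 and 0.94 to 1.78 in HT29.

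Across the 8 libraries, with each line centred on its own mean, the later cyclins varied together. Pearson's r of log2 values was 0.98 between CCNB1 and CCNB2, 0.94 between CCNA2 and CCNB2, 0.92 between CCNA2 and CCNF and 0.68 between CCNB1 and CCNF; length-corrected, these were 0.95, 0.97, 0.96 and 0.91. CCND1 ran against CCNB1 at -0.71 and had -0.04 with CCNF; length-corrected these were -0.65 and -0.35. The points share the same NC libraries, whose distance from the others sets much of each r, so these are descriptions of 8 libraries. Of the 12387 genes averaging 5 RPKM or more, those nearest to CCNA2 were MCM2, a subunit of the replicative helicase (r = 0.99), CDCA8, a subunit of the chromosomal passenger complex, and GK, glycerol kinase (0.98 each). CDKN3, a phosphatase that acts on CDKs, was nearest to both CCNB1 (0.995) and CCNB2 (0.996), followed by EBP and H2AFZ for CCNB1 and by IFI35 and CENPC1 for CCNB2. Nearest to CCND1 were NMD3, the export adaptor of the large ribosomal subunit (0.99), IL6R and COL4A5 (0.99 and 0.98). Nearest to CCNE2 were NCAPD3, a condensin II subunit, TOP2A, the DNA topoisomerase of dividing cells, and CEP57 (0.99 each), and nearest to CCNF were NUP107, HJURP and KIF18B (0.98 each). SPNS1, SYCE2 and FAM203A were nearest to CCNE1 (0.97, 0.96 and 0.95), and MMP17, DNAJB5 and HSD17B7 to CCND3 (0.99, 0.96 and 0.95). After length correction the nearest gene was another one for 7 of the 8 members, all but CCND3.

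The partners and regulators of the cyclins were read from lists, with the 3 RPL siRNAs averaged and set against NC. In this contrast 24 genes or 0.168% of all tested were called, and the median of all tested genes was 0.10. Of 10 CDK inhibitors and inhibitory kinases, CDKN1A (p21), which inhibits cyclin-CDK complexes, was called higher and none lower, with a list median of -0.60. CDKN1A was at 1195, 958 and 1133 RPKM with RPL9, RPL17 and RPL27 siRNA in HCT116, against 225 with NC, and at 834, 761 and 864 RPKM in HT29, against 198 with NC. CDKN1A was thus higher than NC in all 6 RPL siRNA libraries, as were 18% of all tested genes. Its difference was 2.16 log2 (SE 0.15, adjusted p = 0.022). Of 11 CDKs and activators none was called, with a median of -0.49. CDK6, a D-type cyclin partner, differed by 2.10 (adjusted p = 0.076), at 271, 295 and 173 RPKM in HCT116 against 94.7 with NC, and at 166, 211 and 96.9 in HT29 against 19.7 with NC. CDK4, the other D-type partner, differed by -0.15, CDK2 by -0.49 and CDK1, the partner of the B-type cyclins, by -0.78 (adjusted p = 0.094).

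The other lists held no call on deposited values, where 0.168% of all tested genes were called, so the lack of a call says little about lists of this size. The median of all tested genes was 0.10. Of the 26 ubiquitin ligase genes the median was -0.06, with CDC20, the activator of the anaphase-promoting complex that marks B-type cyclins for destruction, at -1.11 (adjusted p = 0.087) and FZR1, the activator used in G1, at -0.08. Of 20 E2F, RB and DREAM genes the median was 0.04, with E2F1 at -0.44, MYBL2 at -0.29 and FOXM1 at -0.38. Of 10 proliferation markers the median was -0.60 and 9 lay below 0. MKI67, the exception at 0.13, was at 663, 868 and 492 RPKM in HCT116 against 1518 with NC, and at 611, 768 and 556 RPKM in HT29 against 230 with NC; length-corrected it was at -0.58. TOP2A, named after its values were seen, likewise lay above NC in HT29, at 2466, 3207 and 2425 RPKM against 1845 with NC, and below it in HCT116, at 1527, 2350 and 1456 RPKM against 3454 with NC. Of 19 tested genes of the wider cyclin family the median was 0.26, with CCNG1 at -0.03 and CCNG2 at -0.22. None of the 9 tested epithelial markers (median 0.37) or the 8 tested markers of other cell types (median 0.27) was called.

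Length-corrected, calls appeared in most lists, while 6.09% of all tested genes were called. The genes of this paragraph were named after their values were seen. In the CDK list CDK6 rose by 2.26, and CDC25C, CDC25B and CKS2, which activate or assist CDKs, fell by 1.51, 0.68 and 0.84. Among the inhibitors CDKN1A rose by 2.16 and CDKN2C and CDKN3 fell by 1.61 and 0.96. Among the ligase genes FBXW7, which targets cyclin E for destruction, rose by 1.15, and CDC20 and UBE2S fell by 1.00 and 1.02. Of the 10 proliferation markers 6 fell (BIRC5, BUB1, MCM2, PLK1, RRM2 and TYMS), in the wider cyclin family CCNK, the partner of CDK12, rose by 0.69, and none of the 20 E2F, RB and DREAM genes was called. Of the epithelial markers KRT19 and KRT8 rose by 0.90 and 0.48, and no marker of other cell types was called. Between RPL17 and RPL27 siRNA on deposited values, CDK6 (0.94, adjusted p = 0.045), MYBL2 (0.65, adjusted p = 0.043) and BUB1 (0.71, adjusted p = 0.049) were higher with RPL17 siRNA, as were the ligase subunits ANAPC5 (0.66) and CUL1 (0.49). ANAPC5 (0.65) and CUL1 (0.67) were also higher with RPL9 siRNA than with RPL27 siRNA. Of all genes, 1.15% were called between RPL17 and RPL27 siRNA and 1.6% between RPL9 and RPL27 siRNA. The fit on all 8 libraries called 0 genes in either pair.

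**Figure D4:**
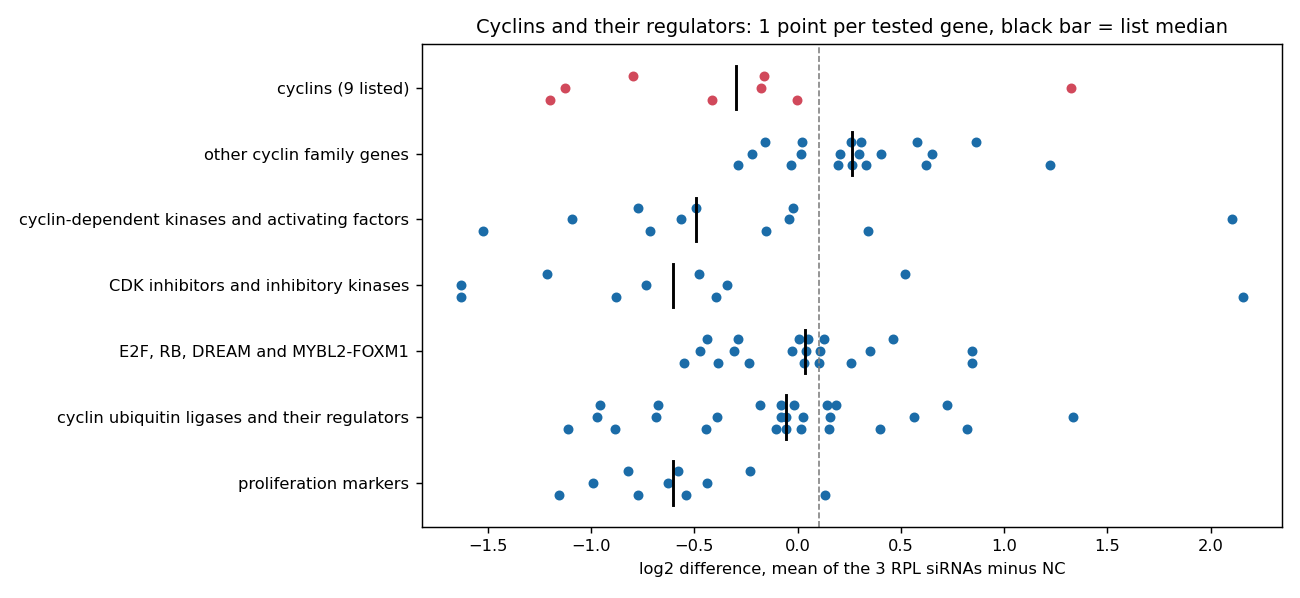
Log2 differences between the averaged RPL siRNAs and NC for the genes of the cyclins and the other cell cycle lists, 1 point per gene. Black bars are list medians, and the dashed line is the median of all tested genes. CDKN1A at 2.16 is the listed gene with an adjusted p under 0.05 on deposited values, which the figure does not mark.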

How the data were processed

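RNA was sequenced from 8 libraries, 1 for each of 2 cell lines and 4 siRNAs, after TruSeq preparation, per the labels. Per the submitters' processing notes, CASAVA 1.8.2 and TopHat2 2.0.9 were used with hg19. The deposited values are RPKM per gene symbol, made by the authors from mapped reads, while no gene-assignment rule or quantifier is given in the sources used here. Read counts were not analysed here, so the depth is unknown and no counting interval is given. Values were taken as log2(RPKM + 1), which understates changes of low genes, and genes averaging 1 RPKM or more over a fit's libraries were tested with limma 3.58.1 (trend) in R 4.3.3, two-sided, with a threshold of 0.05 on the adjusted p.

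Contrasts with NC used all 8 libraries (terms line and siRNA, 3 residual degrees of freedom), those between RPL siRNAs and between lines used the 6 RPL siRNA libraries (2), and the difference of the effect between lines used line and any RPL siRNA with their interaction (4). The 2 lines, or different siRNAs, are the replicates, and p values measure only the spread between them. The length correction removed, per library, a spline with 5 degrees of freedom over transcript length from GENCODE (14180 of 14281 genes matched, 99.3%). Scripts were tested on simulated data.

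The members and lists were chosen with earlier results of these data known. Named were all members, list genes called in the mean contrast or between RPL siRNAs (up to 4 a list), 13 listed regulators as values, and the 3 genes most like each member. Alternatives were other pseudocounts, filters, normalizations, limma settings, length and GC correction, no line term and each library left out; pseudocounts, normalizations and corrections were also applied to the differences within a line.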

Additional observations from a re-analysis of the deposited data

Results flagged for a closer look

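CCNE2 met the condition that every RPL siRNA library of one line moves one way and every one of the other line the opposite way. How many of all genes met it was not counted, so it is not shown to be particular to CCNE2. By sign, 32.4% of tested genes were lower than NC in all 3 RPL siRNA libraries of HCT116, and 46.6% were higher in all 3 of HT29. CCNE2 was at 156, 216 and 147 RPKM with RPL9, RPL17 and RPL27 siRNA in HCT116, against 269 with NC, and at 125, 162 and 124 RPKM in HT29, against 110.4 with NC. The effect in HCT116 minus that in HT29 was -0.96 log2 by the interaction term of limma (SE 0.38, adjusted p = 0.11), or -0.77 after length correction (adjusted p = 0.26). In HCT116 the 3 differences from NC were -0.87 to -0.32 log2, and in HT29 they were 0.17 to 0.55. The HT29 NC library carries a trend with transcript length (rho -0.54), and the condition does not hold under every scaling. In HT29 the differences with RPL9, RPL17 and RPL27 siRNA were 0.06, 0.36 and -0.01 with length correction, -0.23, 0.14 and -0.25 with quantile normalization, -0.23, 0.12 and -0.26 with median-centring and -0.29, 0.03 and -0.23 with length and GC correction.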

How the results depend on the processing

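Of the 72 fitted differences of single cyclins, 53 kept their direction in every alternative. Of 163 alternative counts of cyclins called, 116 stayed within 1.5 times the count given in the text. Against NC the text's counts are 0. Quantile normalization called 2 in the mean of the RPL siRNAs (83 of all genes); length correction called 5 in the mean, 4 with RPL9, 1 with RPL17 and 3 with RPL27 siRNA, and length and GC correction 5, 4, 1 and 4, where 8.34%, 5.76%, 0.515% and 2.91% of all genes were called. With each library left out in turn the counts ran from 0 to 6 in the mean, with RPL9 and with RPL27 siRNA, and from 0 to 4 with RPL17 siRNA, above 0 only without an NC library, when 6.85% to 49% of all genes were called.

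Between RPL9 and RPL17 siRNA (1 called), no filter, limma without trend, no cell line term (that is, no replicate block) and the fit on all 8 libraries gave 0, and leaving out a library gave 0 to 1 (0.0211% to 0.205% of all genes). Between RPL17 and RPL27 siRNA (2 called), those same 4 settings gave 0, a pseudocount of 0.1 gave 1, a mean of at least 5 RPKM gave 4, and leaving out a library gave 0 to 3 (0.014% to 2.33% of all genes). Between RPL9 and RPL27 siRNA (0 called), a mean of at least 5 RPKM gave 1, where 3.43% of all genes were called. The 4 settings that gave 0 called at most 0.00703% of all genes between RPL9 and RPL17 siRNA. Between RPL17 and RPL27 siRNA they called 0%, so their counts of 0 say little about the cyclins. In that pair the pseudocount of 0.1 called 0.682% of all genes and the mean of at least 5 RPKM 3.03%. Between HCT116 and HT29 (2 called), no filter gave 1 (11.4% of all genes), and limma without trend and the fit on all 8 libraries 0 (7.17% and 3.61%). Length and GC correction gave 4 (29.1%), and leaving out a library 1 each time (9.82% to 16.7%). The cell line term pairs the libraries of a line, and the labels give no other pairing. Depth is unknown, so how far it limits CCND2 and other low values cannot be said. The cause of these changes was not tested.

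Of 288 alternative values within a line, 216 moved by less than the residual SD of their gene. Changes of sign among the fitted differences were as follows. In the mean contrast, CCNE1 was 0.028 with length correction and 0.0047 with length and GC correction, and ran from -0.20 to 0.19 with a library left out; CCNE2 ran from -0.66 to 0.30. With RPL9 siRNA CCNE1 ran from -0.37 to 0.24 and CCNE2 from -0.78 to 0.18; with RPL17 siRNA CCNE1 ran from -0.35 to 0.044, CCNE2 from -0.36 to 0.59 and CCNF from -0.32 to 0.20; with RPL27 siRNA CCNE2 ran from -0.83 to 0.13. CCNE2 with RPL17 siRNA was -0.087 with quantile normalization, -0.082 with median-centring and -0.15 with length and GC correction. Between RPL9 and RPL17 siRNA, CCND3 ran from -0.14 to 0.056 and CCNE1 from -0.18 to 0.36. Between RPL9 and RPL27 siRNA, CCND1 was -0.0085 with quantile normalization and ran from -0.055 to 0.10, CCND3 from -0.22 to 0.052 and CCNE2 from -0.013 to 0.11. Between RPL17 and RPL27 siRNA, CCND3 was 0.026 with length and GC correction and ran from -0.18 to 0.093. Between the lines, CCND3 was 0.020 with quantile normalization, 0.019 with median-centring, 0.081 with length correction and 0.097 with length and GC correction, and ran from -0.087 to 0.068. For the difference of the effect between lines, CCNA2 (-0.37 in the text's fit) was 0.077 with median-centring and 0.068 with length and GC correction, CCNB2 -0.28 with length correction and -0.050 with length and GC correction (-0.18 to 0.18 with a library left out), CCND3 -0.19 with length and GC correction and CCNF (-0.52 in the text's fit) 0.13 with length correction.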
